A study of Mus musculus with 16 samples.

Results

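The transcripts described here were 10 mRNAs of the ATF4 arm of the integrated stress response, measured by mRNA sequencing in primary hepatocytes from wild-type mice. They were the rows of the count table whose symbol was *Atf4*, *Atf3*, *Atf5*, *Ddit3*, *Trib3*, *Ppp1r15a*, *Ddit4*, *Sesn2*, *Asns* or *Chac1*. These 10 symbols matched 11 of 55450 gene rows, because *Ddit3* was listed under 2 identifiers, and 10 of the 11 rows were among the 11675 genes that were expressed highly enough to be tested. The second *Ddit3* row (ENSMUSG00000116429.1) held 0 to 15 counts per library and was left out of the tests.

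The experiment asked how exogenous itaconate, an acid that activated macrophages make from aconitate, alters hepatocytes with and without a lipid challenge. All cultures were kept overnight in DMEM with serum and an insulin, transferrin and selenium supplement, and the 4 groups of 4 libraries (replicates A to D) differed only in what was added. Untreated hepatocytes received nothing further, the itaconate group received 10 mM sodium itaconate, the lipid group received a chemically defined mixture of fatty acids and cholesterol diluted 10-fold, and the lipid + itaconate group received both. The labels give no age of the animals, do not say what the replicate letters stand for, and name no vehicle, so p-values measure the spread between these libraries, which may be partly technical.

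The integrated stress response starts with kinases that phosphorylate the translation factor eIF2. Most protein synthesis then slows, while short upstream reading frames let ribosomes translate *Atf4* mRNA more, so ATF4 protein can rise with no change in its message. ATF4 pairs with C/EBP-family and other leucine zipper proteins, binds composite response elements, and induces genes of amino acid supply, further transcription factors and proteins that end the response. In the liver the pathway is known for its response to amino acid shortage, endoplasmic reticulum stress and mitochondrial stress. Values below are CPM, counts scaled to a common normalised library size, and a gene is said to have risen or fallen where its adjusted p was under 0.05 (edgeR quasi-likelihood test with the replicate letter as a term, Benjamini-Hochberg over 11675 genes).

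The libraries held 22346049 to 35512004 counts, with a median of 27719372, and 3.27 to 6.01% of counts came from mitochondrial genes. Hepatocyte markers dominated, with *Alb*, which encodes albumin, at 24204 CPM or more in every library. Of the markers of other liver cells, *Col1a1*, *Des* and *Lrat* of stellate cells did not exceed 0.187 CPM, *Krt19*, *Krt7*, *Epcam* and *Cftr* of cholangiocytes did not exceed 0.579 CPM, and *Adgre1* and *Clec4f* of Kupffer cells did not exceed 3.80 CPM. Others of the same lists were higher, with means of 529 CPM for *Spp1* and 112 CPM for *Sox9* (cholangiocyte list), 218 CPM for *Cd68* and 6.03 CPM for *Lyz2* (macrophage list) and 20.2 CPM for *Reln* (stellate list). No library stood apart, since the root mean square deviation of a library from its group mean over the tested genes was between 0.183 and 0.252 on the log2 scale.

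In untreated hepatocytes the order of the 10 mRNAs per kilobase of exon was led by the transcription factors. *Atf5*, a leucine zipper factor whose translation is controlled like that of ATF4, was at 275 ± 27.6 CPM per kilobase (SD, n = 4), and *Atf4* itself was at 126 ± 5.91. Next came *Ddit4* at 82.2 ± 13.9, *Atf3* at 77.7 ± 14.8, *Trib3* at 50.5 ± 3.87 and *Ppp1r15a* at 33.0 ± 3.09. The lower levels were those of *Ddit3* at 18.0 ± 4.30, *Sesn2* at 16.5 ± 1.26, *Asns* at 12.8 ± 1.25 and *Chac1* at 7.96 ± 2.79 CPM per kilobase. The neighbours *Ddit4* and *Atf3* differed by less than the SD of either, and *Ddit3* and *Sesn2* by less than the SD of *Ddit3*. Over the 16 libraries *Atf4* was the steadiest, with its highest CPM 1.20 times its lowest, and *Chac1* varied most, with a ratio of 2.87.

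**Figure D1:**
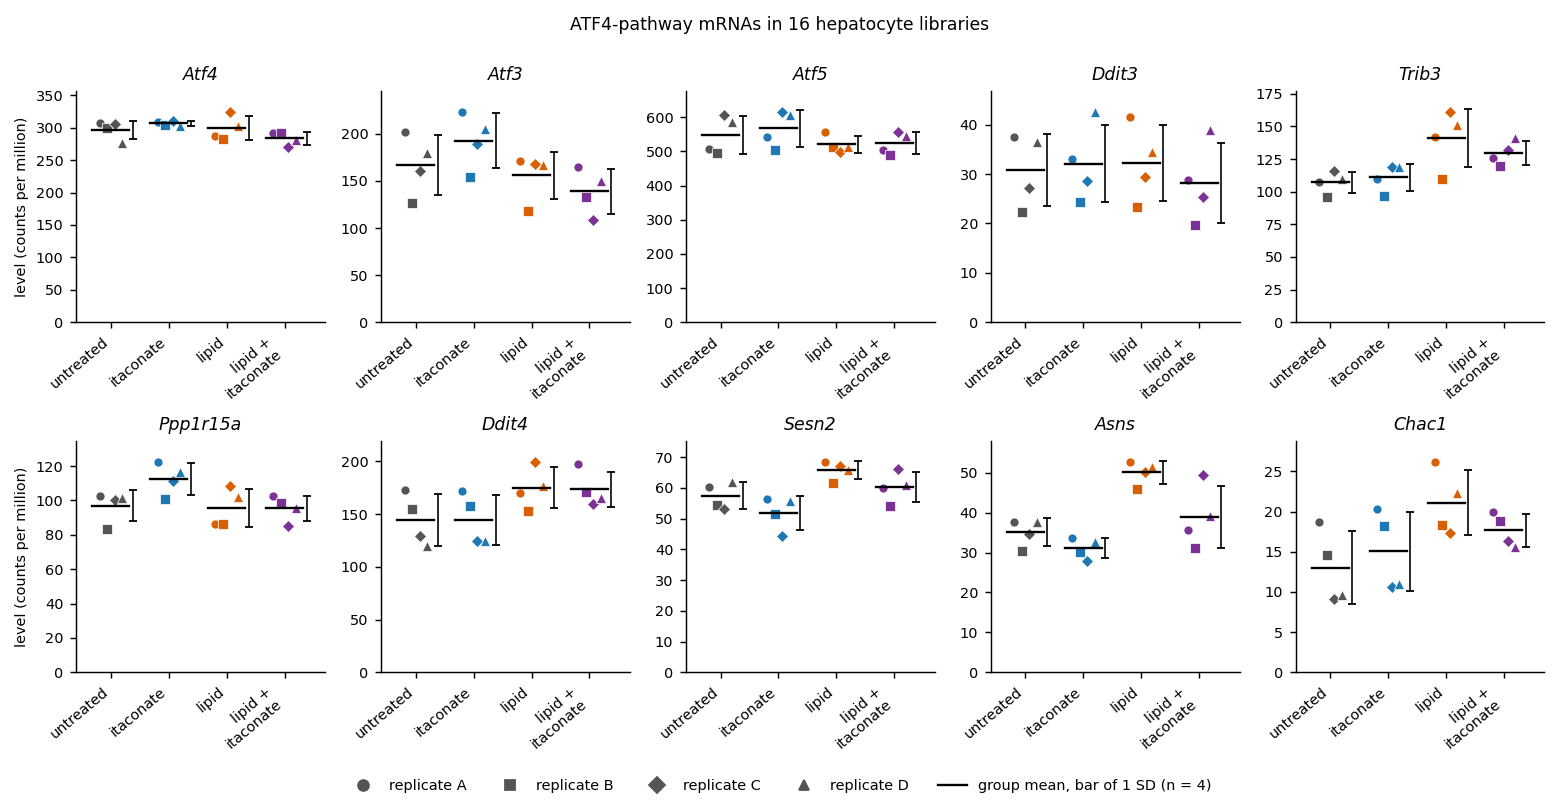
Level of each of the 10 mRNAs in CPM (vertical axes, each from 0) in the 16 libraries, by treatment; symbols mark replicates A to D, the horizontal line is the group mean and the bar beside it is 1 SD (n = 4). *Asns* in the 4 lipid libraries lay at 45.9 to 52.7 CPM, above all 4 untreated libraries at 30.4 to 37.8 CPM, while *Atf4* stayed between 270 and 325 CPM in all 16.

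The promoters of 5 of the 10 mRNAs are shown so that their response elements can be read beside the expression values. They are those of every member with a match to a motif described below, and that of *Trib3*. The windows of *Ddit4* and *Sesn2*, which were called in both lipid comparisons below, held no match and are not printed. The RefSeq table (GRCm38.p6) held 11 windows for the 10 genes, *Atf5* having 2 start sites, and each window ran from 250 bases before to 50 bases from a start site. Only the 250 bases before the start are printed, 5′ to 3′ on the strand of the gene, with matched letters in capitals.
Chac1 promoter, chr2:119350992-119351241, plus strand: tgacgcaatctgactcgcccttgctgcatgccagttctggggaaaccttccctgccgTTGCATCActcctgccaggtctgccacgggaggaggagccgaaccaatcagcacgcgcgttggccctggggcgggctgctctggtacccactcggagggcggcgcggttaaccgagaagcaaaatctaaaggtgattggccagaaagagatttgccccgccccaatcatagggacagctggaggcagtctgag
Asns promoter, chr6:7693210-7693459, minus strand: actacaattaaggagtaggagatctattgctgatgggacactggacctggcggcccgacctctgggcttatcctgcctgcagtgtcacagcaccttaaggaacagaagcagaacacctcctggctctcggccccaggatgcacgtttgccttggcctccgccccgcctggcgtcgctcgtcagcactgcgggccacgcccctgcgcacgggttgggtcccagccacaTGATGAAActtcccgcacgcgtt
Trib3 promoter, chr2:152344061-152344310, minus strand: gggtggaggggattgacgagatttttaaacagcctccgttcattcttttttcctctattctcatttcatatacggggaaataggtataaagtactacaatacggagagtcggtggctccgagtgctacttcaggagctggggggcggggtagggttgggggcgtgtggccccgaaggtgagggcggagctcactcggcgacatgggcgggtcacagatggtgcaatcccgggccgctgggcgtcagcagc
Atf3 promoter, chr1:191183334-191183583, minus strand: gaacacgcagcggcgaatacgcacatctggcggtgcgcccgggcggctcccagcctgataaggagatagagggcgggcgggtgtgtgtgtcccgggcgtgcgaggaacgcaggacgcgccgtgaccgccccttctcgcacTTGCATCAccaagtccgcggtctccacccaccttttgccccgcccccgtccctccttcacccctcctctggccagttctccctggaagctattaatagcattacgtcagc
Ppp1r15a promoter, chr7:45526269-45526518, minus strand: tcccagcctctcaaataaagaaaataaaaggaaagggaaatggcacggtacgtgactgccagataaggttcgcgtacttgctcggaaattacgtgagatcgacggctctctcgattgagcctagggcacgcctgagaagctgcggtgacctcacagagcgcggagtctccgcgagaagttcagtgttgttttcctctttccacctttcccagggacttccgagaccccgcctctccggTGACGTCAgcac

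The capitals mark exact matches to 1 of 3 motifs, each searched on both strands of the whole window. The C/EBP-ATF response element core, TGATGCAA, was present in 0.895% of 32851 RefSeq windows and in those of 2 members, *Chac1* at positions -193 to -186 and *Atf3* at -110 to -103, read in both as its reverse complement TTGCATCA (position -1 is the base before the start site). The amino acid response variant, TGATGAAA, was present in 1.02% of windows and, among the 10 genes, in *Asns* at -23 to -16. The cAMP response element, TGACGTCA, was present in 1.79% of windows and in *Ppp1r15a* at -12 to -5, where its palindrome reads alike on either strand. The endoplasmic reticulum stress element, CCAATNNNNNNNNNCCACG, was present in 0.119% of windows and in none of the 11 member windows. The *Trib3* window held none of the 4 motifs as spelled. The RefSeq start site of *Atf3* lies inside the GENCODE gene (chr1:191170296-191218039, minus strand), which extends further upstream. The same holds for *Asns* (chr6:7675169-7693254, minus strand). In both, the match before the RefSeq start site lies inside the GENCODE gene. A match describes letters in a window and is not evidence of binding.

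With lipid the mRNAs of 2 ATF4-dependent enzymes, of the pseudokinase *Trib3* and of 2 restraints of mTORC1 rose, while no transcription factor of the set passed the test. Of the 10 members 5 rose and none fell with lipid alone. Of all tested genes 47.5% were called, 23.8% higher and 23.7% lower, so the number called, 5 of 10, is close to the share in the whole transcriptome. All 5 were rises, and whether that differs from the 23.8% of all tested genes that rose was not tested. The median log2 fold change of the 10 was 0.13, against 0.00 over all tested genes.

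*Chac1*, which encodes a cyclotransferase that degrades glutathione, had the largest difference of the 10. Its levels were 18.8, 14.6, 9.12 and 9.62 CPM in untreated replicates A to D and 26.2, 18.4, 17.4 and 22.4 CPM in the lipid libraries. Each letter was higher with lipid, but untreated A overlapped the lipid group. The log2 fold change was 0.74 (SE 0.138, adjusted p = 0.00044), an increase of 66.9%, and it remained called in 22 of 22 alternative settings, between 0.59 and 0.87. Within letters the log2 difference was 0.48 in A, 0.33 in B, 0.93 in C and 1.22 in D.

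*Asns*, which encodes asparagine synthetase and carries the TGATGAAA letters next to its RefSeq start site, was at 37.6, 30.4, 34.7 and 37.8 CPM in untreated and at 52.7, 45.9, 50.1 and 51.5 CPM in lipid-treated hepatocytes. These groups did not overlap, and *Asns* was the only member of which that was true, against 32.5% of all tested genes in either direction. The log2 fold change was 0.52 (SE 0.0918, adjusted p = 0.000298), with letters between 0.45 and 0.60, and it was called in 22 of 22 alternatives.

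*Trib3*, a pseudokinase that binds ATF4 and AKT and dampens both, was at 107, 96.1, 116 and 110.0 CPM in untreated and at 142, 110, 161 and 151 CPM in lipid-treated hepatocytes. All 4 letters were higher with lipid, B least, and lipid B lay within the untreated range. The log2 fold change was 0.39 (SE 0.0524, adjusted p = 2.63e-05), called in 22 of 22 alternatives.

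The 2 members that restrain mTORC1 rose less. *Ddit4*, which encodes REDD1, was at 173, 155, 129 and 120 CPM in untreated and at 170, 153, 200 and 177 CPM in lipid-treated hepatocytes. Only letters C and D were higher with lipid (log2 differences of 0.63 and 0.57), whereas A and B both differed by -0.02. The fitted log2 fold change was 0.30 (SE 0.0984, adjusted p = 0.0203), and it was not called without untreated C, untreated D, lipid C or lipid D (0.18 to 0.26, adjusted p = 0.078 to 0.107) or with no replicate block (adjusted p = 0.0876). *Sesn2*, a sestrin that senses leucine, was at 60.4, 54.4, 53.1 and 62.0 CPM in untreated and at 68.5, 61.7, 67.2 and 65.8 CPM in lipid-treated hepatocytes. Its groups overlapped only through untreated D and lipid B, and its log2 fold change was 0.20 (SE 0.0665, adjusted p = 0.0237). It was not called without untreated C (0.16, adjusted p = 0.0908), without lipid C (0.17, adjusted p = 0.077) or with no replicate block (adjusted p = 0.0608).

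The transcription factors of the set did not pass the test with lipid alone. *Atf4* was at 307, 300, 305 and 277 CPM in untreated and at 288, 283, 325 and 303 CPM in lipid-treated hepatocytes, with the letters split evenly in direction. Its log2 fold change was 0.01 with a 95% confidence interval of -0.09 to 0.12 (adjusted p = 0.846). *Atf5* differed by -0.07 (interval -0.19 to 0.06), *Atf3*, a stress-induced leucine zipper protein, by -0.09 (-0.27 to 0.09), and *Ddit3*, which encodes the pro-apoptotic factor CHOP, by 0.07 (-0.12 to 0.25). *Ppp1r15a*, which encodes the GADD34 subunit that guides a phosphatase to eIF2, differed by -0.01 (-0.18 to 0.15). These intervals leave room for changes of the size seen for *Sesn2* in *Ddit3* but not in *Atf4*.

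**Figure D2:**
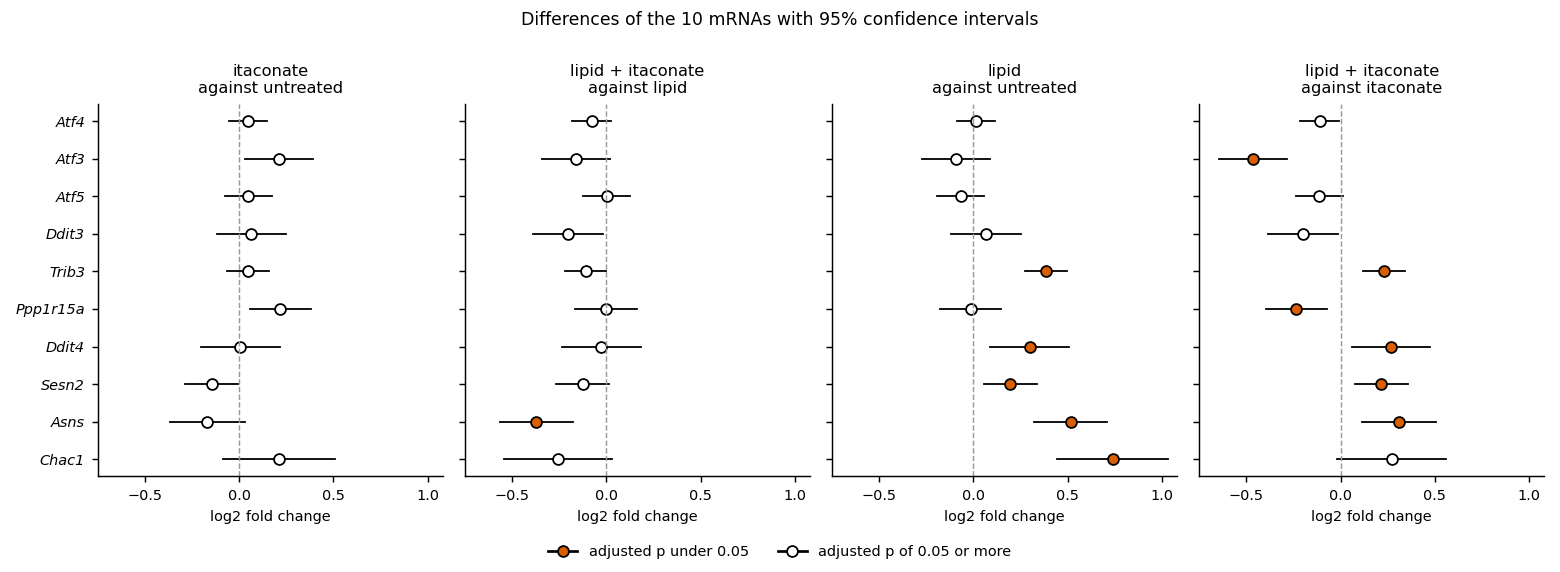
Log2 fold change of each of the 10 mRNAs (points) with its 95% confidence interval (lines) in 4 comparisons; filled points have an adjusted p under 0.05. With lipid alone the 5 filled points all lie to the right of 0, from 0.20 for *Sesn2* to 0.74 for *Chac1*; in the itaconate against untreated panel no point is filled.

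The same lipid challenge was also compared in the presence of itaconate, in 8 libraries that are not those of the comparison above. These libraries carry the same replicate letters and entered the same fit, so the comparisons are not independent. Here 4 members rose and 2 fell, against 47.0% of all tested genes called (23.5% higher and 23.5% lower), so the number called was again near that of the transcriptome. *Trib3*, *Asns*, *Sesn2* and *Ddit4* rose in both settings, *Chac1* was called only without itaconate, and *Atf3* and *Ppp1r15a* fell only with itaconate present. Whether the lipid difference itself changed with itaconate is tested further on.

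*Trib3* was at 110, 96.6, 119 and 119 CPM with itaconate and at 126, 120, 132 and 141 CPM with lipid + itaconate. Every lipid + itaconate library was above every itaconate library, and the log2 fold change was 0.23 (SE 0.0522, adjusted p = 0.00218, or 0.0894 with no replicate block). *Asns* was at 33.7, 30.1, 27.9 and 32.7 CPM with itaconate and at 35.7, 31.0, 49.5 and 39.2 CPM with both. Letter C stood out with a log2 difference of 0.83, against 0.09, 0.04 and 0.26 in A, B and D. The fitted value of 0.31 (SE 0.0926, adjusted p = 0.0119) became 0.16 without lipid + itaconate C (adjusted p = 0.0277), and the call was lost without itaconate C (0.22, adjusted p = 0.0686) and in the fit of only the 8 libraries of the comparison (0.30, adjusted p = 0.061).

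*Sesn2* was at 56.2, 51.6, 44.3 and 55.6 CPM with itaconate and at 60.1, 53.9, 66.0 and 61.0 CPM with lipid + itaconate. Letter C again had the largest difference, 0.58 on the log2 scale, against 0.06 to 0.13 in the other letters. The fitted value of 0.22 (SE 0.0665, adjusted p = 0.0143) became 0.14 without either C library, and neither fit called it (adjusted p = 0.0758 without itaconate C and 0.0577 without lipid + itaconate C). The fit of only the 8 libraries of the comparison did not call it either, at the same fold (0.22, adjusted p = 0.0621). *Ddit4* was at 172, 157, 125 and 125 CPM with itaconate and at 198, 171, 160 and 166 CPM with both, higher in 4 of 4 letters. Its log2 fold change was 0.27 (SE 0.0979, adjusted p = 0.0346), and it was not called without itaconate C, itaconate D, lipid + itaconate A or lipid + itaconate D (adjusted p = 0.0778 to 0.131) or with no replicate block (adjusted p = 0.11).

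*Atf3* was the member that fell most. It was at 224, 154, 189 and 205 CPM with itaconate and at 165, 133, 109 and 150 CPM with lipid + itaconate. Each letter was lower, C most and B least, and the groups overlapped only through itaconate B. The log2 fold change was -0.46 (SE 0.0849, adjusted p = 0.000423), a decrease of 27.5%, called in 22 of 22 alternatives. *Ppp1r15a* was at 123, 101, 111 and 116 CPM with itaconate and at 103, 98.3, 85.3 and 95.4 CPM with both, lower in 4 of 4 letters. Its log2 fold change was -0.23 (SE 0.0761, adjusted p = 0.0191), and it was not called without itaconate A, lipid + itaconate C or lipid + itaconate D (adjusted p = 0.0633 to 0.0716).

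The other 4 members did not pass the test in the presence of itaconate. *Chac1* was at 20.3, 18.2, 10.6 and 11.0 CPM with itaconate and at 19.9, 18.8, 16.3 and 15.6 CPM with lipid + itaconate. Letters A and B hardly differed (-0.03 and 0.04), letters C and D were higher (0.61 and 0.50), and the fitted value was 0.27 (SE 0.136, adjusted p = 0.114, or 0.0108 with no filter on low counts). *Atf4* was at 308, 305, 311 and 302 CPM with itaconate and at 291, 292, 270 and 281 CPM with both. These groups did not overlap, as for *Trib3* and for 31.5% of all tested genes, yet the log2 fold change of -0.11 (SE 0.0481) had an adjusted p of 0.0689, and over the alternatives the adjusted p ran from 0.033 to 0.236. *Ddit3* was lower in 4 of 4 letters, with a log2 fold change of -0.20 (adjusted p = 0.0691). It was called in 6 of 22 alternatives, among them the fit of only the 8 libraries of the comparison (adjusted p = 0.0225), no filter on low counts (0.0282) and the fits without itaconate A (0.0303), lipid + itaconate D (0.0229), lipid A (0.0414) or lipid D (0.036). *Atf5* differed by -0.11 (adjusted p = 0.125).

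**Figure D3:**
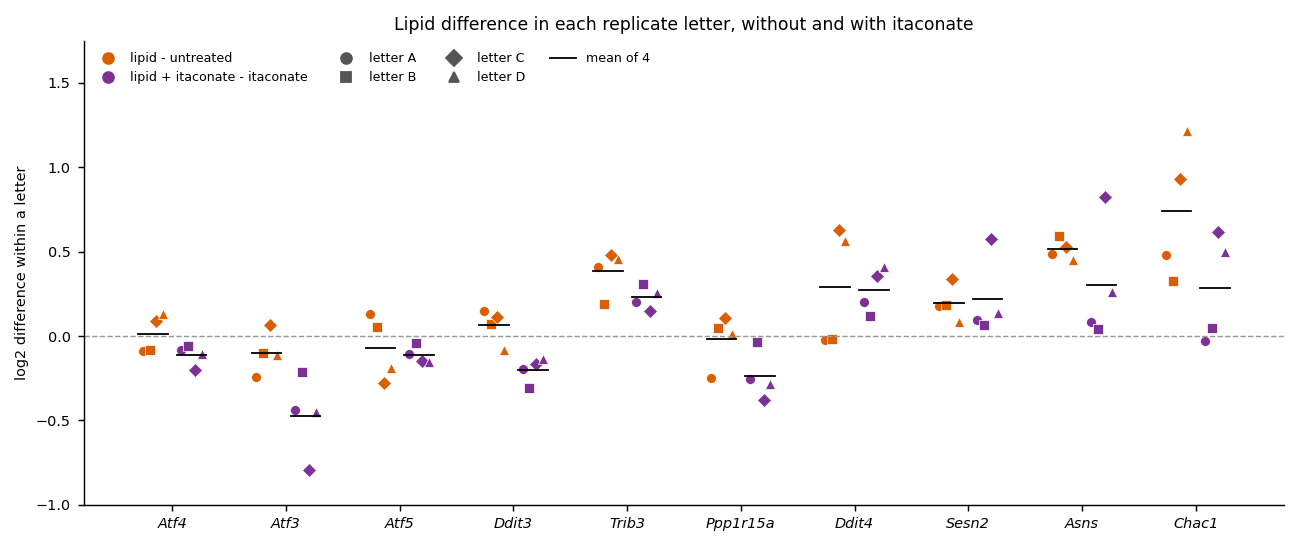
Log2 difference of CPM between the lipid and no-lipid library of the same replicate letter, without itaconate (orange) and with it (purple), for each of the 10 mRNAs; symbols mark letters A to D and the line is the mean of 4. *Ddit4* shows 2 letters at -0.02 and 2 at 0.57 or more without itaconate, and *Asns* shows letter C at 0.83 with itaconate while the other letters are at 0.26 or less.

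With itaconate and no lipid none of the 10 mRNAs was called by DESeq2 or by the main edgeR fit (all 16 libraries, with the filter on low counts). In this comparison the main fit called 4.91% of all tested genes (1.96% higher and 2.95% lower). At an unadjusted p under 0.05 there were 3, *Atf3*, *Ppp1r15a* and *Sesn2*. *Ppp1r15a* was at 102, 83.3, 100.4 and 101 CPM in untreated hepatocytes, and its itaconate values given above were higher in 4 of 4 letters, by 0.22 on the log2 scale (SE 0.0763, adjusted p = 0.109). *Atf3* was at 202, 127, 161 and 180 CPM in untreated hepatocytes and was likewise higher in 4 of 4 letters with itaconate, by 0.21 (SE 0.0846, adjusted p = 0.162). *Sesn2* and *Asns* were lower in 4 of 4 letters, with log2 fold changes of -0.15 (adjusted p = 0.222) and -0.17 (adjusted p = 0.314).

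These calls depended on the filter and on which libraries entered the fit. With no filter on low counts *Atf3* (0.22, adjusted p = 0.00182) and *Ppp1r15a* (0.23, adjusted p = 0.00159) were called higher by edgeR. With only the 8 libraries of the comparison, 4 members were called, *Atf3* (adjusted p = 0.000887) and *Ppp1r15a* (adjusted p = 0.00165) higher and *Asns* (adjusted p = 0.0353) and *Sesn2* (adjusted p = 0.0242) lower, at nearly the same fold changes. Without lipid + itaconate C, which is not a library of this comparison but shares in the estimate of the spread, 3 were called (*Atf3*, *Ppp1r15a* and *Asns*). The share of all tested genes called was not counted for these other fits. In the 4 lists of other ATF4 targets described below, the fit of 8 libraries called 12 genes higher and 7 lower. The main fit called 4 and 3 there. *Atf4* was at 297 ± 13.9 CPM (SD, n = 4) untreated and 306 ± 3.76 CPM with itaconate, a log2 difference of 0.05 with an interval of -0.06 to 0.15. The itaconate libraries are also the baseline of the lipid comparison in which *Atf3* and *Ppp1r15a* fell, so the higher itaconate values and the fall are not independent measurements.

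In lipid-treated hepatocytes itaconate was accompanied by a lower level of 1 member, *Asns*, against 2.58% of all tested genes called (1.32% higher and 1.26% lower). Its values, 52.7, 45.9, 50.1 and 51.5 CPM with lipid and 35.7, 31.0, 49.5 and 39.2 CPM with lipid + itaconate, were lower in 4 of 4 letters, but by only 0.02 in C. The log2 fold change was -0.37 (SE 0.0908, adjusted p = 0.0429), a decrease of 22.7%. This call held in 6 of 22 alternatives and was lost in 16, among them each library left out in turn other than itaconate C and lipid + itaconate C (adjusted p = 0.0518 to 0.179), the fit to the 8 libraries of the comparison (0.226) and the fit with no replicate block (0.273). Without lipid + itaconate C the log2 fold change was -0.52, and *Sesn2* was called too (-0.21, adjusted p = 0.036).

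Of the 10 members 9 had a negative log2 fold change here, with a median of -0.12 against 0.00 over all genes, and 2 had an unadjusted p under 0.05, *Asns* and *Ddit3*. *Ddit3* was at 41.5, 23.4, 29.4 and 34.4 CPM with lipid and at 28.8, 19.7, 25.4 and 38.8 CPM with lipid + itaconate, lower in 3 of 4 letters, with a log2 fold change of -0.20 (SE 0.0868, adjusted p = 0.24). *Chac1* differed by -0.26 (SE 0.134, adjusted p = 0.342) and *Trib3* by -0.11 (SE 0.0521, adjusted p = 0.291). *Atf5* and *Ppp1r15a* differed by 0.00 each, with intervals of -0.12 to 0.13 and -0.16 to 0.16. In no member did the 4 libraries of one group lie wholly outside those of the other in either itaconate comparison, against 7.53% of all genes without lipid and 5.82% with it.

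Whether itaconate changed the lipid response was tested directly as the interaction of the treatments, which is the lipid difference with itaconate minus the lipid difference without it. None of the 10 members was called by the main edgeR fit or by DESeq2, and 0.00857% of all tested genes, 1 gene, were called by the main edgeR fit. The estimate was negative for 9 of 10 members, with a median of -0.18, against 0.00 over all genes, and 4 had an unadjusted p under 0.05. These were *Chac1* (-0.47, interval -0.88 to -0.06, adjusted p = 0.524), *Atf3* (-0.37, -0.62 to -0.12, adjusted p = 0.385), *Ddit3* (-0.27, -0.53 to -0.01, adjusted p = 0.566) and *Trib3* (-0.16, -0.31 to -9.6e-05, adjusted p = 0.58). With no filter on low counts *Atf3* (adjusted p = 0.000204) and *Chac1* (adjusted p = 0.0197) were called. The fits thus disagreed on the interaction for *Atf3* and *Chac1*. That *Chac1* was called only without itaconate, and *Atf3* and *Ppp1r15a* only with it, does not by itself show that their lipid response differed between the settings.

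The kinases and controls upstream of ATF4 moved in both directions with lipid. Of 23 such genes tested 7 rose and 6 fell, with a median log2 fold change of -0.01. Counts of this list and of the lists that follow are read against the 23.8% of all tested genes that rose with lipid, the 23.7% that fell and the median of 0.00. *Eif2ak3*, which encodes the endoplasmic reticulum kinase PERK, fell from 108 ± 5.92 to 61.6 ± 6.60 CPM (log2 fold change -0.82, adjusted p = 9.08e-09), and *Eif2ak2*, the double-stranded RNA kinase PKR, fell from 129 ± 21.6 to 80.9 ± 11.9 CPM (-0.67, adjusted p = 1.21e-06). *Eif2b3*, a subunit of the exchange factor that phosphorylated eIF2 inhibits, rose from 19.4 ± 1.07 to 30.0 ± 1.36 CPM (0.63, adjusted p = 3.91e-06), and *Dele1*, which relays mitochondrial stress to the kinase HRI, rose by 0.35 (adjusted p = 0.000643). With itaconate alone *Eif2ak2* fell by 0.40 (adjusted p = 0.00232), *Abcf1* fell by 0.22 and *Nck1* rose by 0.20. *Dele1* was the gene of this list called when itaconate was added to lipid (-0.28, adjusted p = 0.045). With no replicate block, no gene of this list or of the lists that follow was called in either itaconate comparison. With only the 8 libraries of the comparison, none was called for lipid + itaconate against lipid. In the presence of itaconate lipid was accompanied by 5 rises and 4 falls, among them *Eif2ak3* (-0.78) and *Ibtk* (-0.45) lower and *Eif2b3* (0.54) and *Abcf1* (0.28) higher.

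The dimer partners of ATF4 and other leucine zipper genes mostly fell with lipid. Of 15 tested (3 of 18 were under the filter), 10 fell and 1 rose, with a median log2 fold change of -0.19. *Cebpd* fell from 35.0 ± 6.76 to 13.5 ± 4.72 CPM (-1.41, adjusted p = 6.23e-07) and *Mafk* from 75.2 ± 7.53 to 51.8 ± 3.54 CPM (-0.53, adjusted p = 7.48e-07). *Cebpa*, a factor of hepatocyte differentiation, was the one that rose, from 133 ± 8.87 to 175 ± 23.6 CPM (0.39, adjusted p = 3.98e-05). With itaconate present 9 fell and 1 rose. *Cebpg*, a known ATF4 partner, rose with itaconate alone (0.18, adjusted p = 0.0266), and *Junb* rose when itaconate was added to lipid (0.21, adjusted p = 0.0324).

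Other known ATF4 targets were examined in 4 lists of 60 genes, of which 54 were tested. Together 21 rose and 11 fell with lipid, with a median log2 fold change of 0.11, and 14 rose and 14 fell with lipid in the presence of itaconate, with a median of -0.01. The enzymes of amino acid synthesis and of the folate cycle accounted for 7 of the 21, from 14 tested, with 2 falling and a median of 0.39. *Pycr1*, which makes proline, rose from 1.00 ± 0.271 to 2.12 ± 0.243 CPM (1.11, adjusted p = 0.000359), and *Aldh1l2*, a mitochondrial folate enzyme, rose from 9.48 ± 1.94 to 18.3 ± 2.19 CPM (0.96, adjusted p = 1.65e-05). The other 5 were *Aldh18a1*, *Pck2*, *Mthfd2*, *Psph* and *Phgdh*, at 0.55 to 0.83, named after their values were seen. *Gpt2* (-0.40) and *Cbs* (-0.34), which handle alanine and cystathionine, fell.

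With itaconate present the same enzyme list had 6 rises and 3 falls with lipid, led by *Pycr1* (1.15) and *Pck2* (0.63) upwards and *Gpt2* (-0.43) and *Cbs* (-0.39) downwards. *Aldh1l2* was the one gene of the 54 that fell when itaconate was added to lipid, as *Asns* did. Its level went from 18.3 ± 2.19 to 12.7 ± 1.34 CPM (-0.54, adjusted p = 0.0306). The count of 1 depended on the fit. It was 7 by DESeq2, 11 with no filter on low counts, and 0 with no replicate block or when the 8 libraries were fitted alone. Within the enzyme list DESeq2 called 4 lower, and the fit with no filter called 6. With itaconate alone none of these 14 enzymes was called by the main edgeR fit or DESeq2, and 2 had an unadjusted p under 0.05. The fit with no filter called 1 higher, and the fit of only the 8 libraries called 2 higher.

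Amino acid carriers rose in 5 of 10 tested with lipid and fell in 1. *Slc7a1*, for cationic amino acids, rose from 14.4 ± 2.93 to 20.1 ± 3.33 CPM (0.49, adjusted p = 0.0296), *Slc1a4* rose by 0.33 (adjusted p = 0.00137), and *Slc43a1*, *Slc3a2* and *Slc6a9* (0.13 to 0.32, named after their values were seen) also rose. *Slc38a2*, the amino-acid-regulated carrier of neutral amino acids, fell from 242 ± 27.5 to 173 ± 23.0 CPM (-0.49, adjusted p = 1.56e-07), and it rose with itaconate both without lipid (0.27, adjusted p = 0.00115) and with it (0.19, adjusted p = 0.0193). *Slc7a11*, the cystine carrier, fell with itaconate alone (-0.26, adjusted p = 0.0317), and *Slc43a1* rose (0.50, adjusted p = 0.022). The count of carriers that rose with lipid was 2 with no replicate block and 3 with DESeq2.

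Genes of tRNA charging had 6 rises and 2 falls of 13 tested with lipid, with a median of 0.09. *Lars* (0.42, adjusted p = 0.000152) and *Gars* (0.27, adjusted p = 3.9e-05), which charge leucine and glycine tRNAs, rose, and *Xpot* (-0.19) and *Tars* (-0.16) fell. With itaconate present 2 rose (*Lars* and *Gars*) and 3 fell. The main edgeR fit called none in either itaconate comparison. At an unadjusted p under 0.05 there were 3 without lipid and 6 with it, and DESeq2 called 1 in each. With itaconate alone the fit of only the 8 libraries called 2 higher and 1 lower. Signalling and stress targets had 3 rises and 6 falls of 17 tested with lipid. *Gadd45a*, a growth arrest gene, rose from 90.3 ± 12.1 to 129 ± 11.7 CPM (0.52, adjusted p = 7.72e-07), *Nupr1* rose by 0.48 and *Rcan1* (named after its values were seen) by 0.26, while *Herpud1* (-0.69, adjusted p = 1.59e-05) and *Klhl24* (-0.66, adjusted p = 1.87e-07) fell. *Klhl24* rose with itaconate without lipid and with it, by 0.24 in each (adjusted p = 0.0169 and 0.0324). With itaconate alone *Cebpg* of this list also rose, and *Tnfrsf10b* and *Wfs1* fell. With lipid in the presence of itaconate 4 genes of this list rose and 7 fell.

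The ATF6 and XBP1 arms of the unfolded protein response, which run beside the ATF4 arm in endoplasmic reticulum stress, went the other way from the members that rose. Of 22 genes tested 19 fell and 1 rose with lipid, with a median log2 fold change of -0.42. *Derl3* (-1.44, adjusted p = 7.09e-05) and *Sdf2l1* (-1.20, adjusted p = 2.04e-06), which act in protein quality control, fell most, and *Ern1*, which encodes the sensor IRE1, rose by 0.37 (adjusted p = 4.81e-06). *Hspa5*, the chaperone BiP, also named after its values were seen, was at 1980.1 CPM untreated and 1530.1 CPM with lipid (-0.36, adjusted p = 4.85e-05). With itaconate present 17 fell and 1 rose, with a median of -0.30, but only 5 fell with no replicate block. Itaconate alone was accompanied by rises of *Atf6* (0.24) and *Ern1* (0.20) and a fall of *Creld2* (-0.29), with a list median of -0.10. Other fits of this comparison called more falls, 5 with no filter on low counts and 7 with only its 8 libraries. With no replicate block neither rises nor falls were called. With itaconate added to lipid the main edgeR fit and DESeq2 called none of the 22 (2 at an unadjusted p under 0.05). The fit with no filter called 1 higher.

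**Figure D4:**
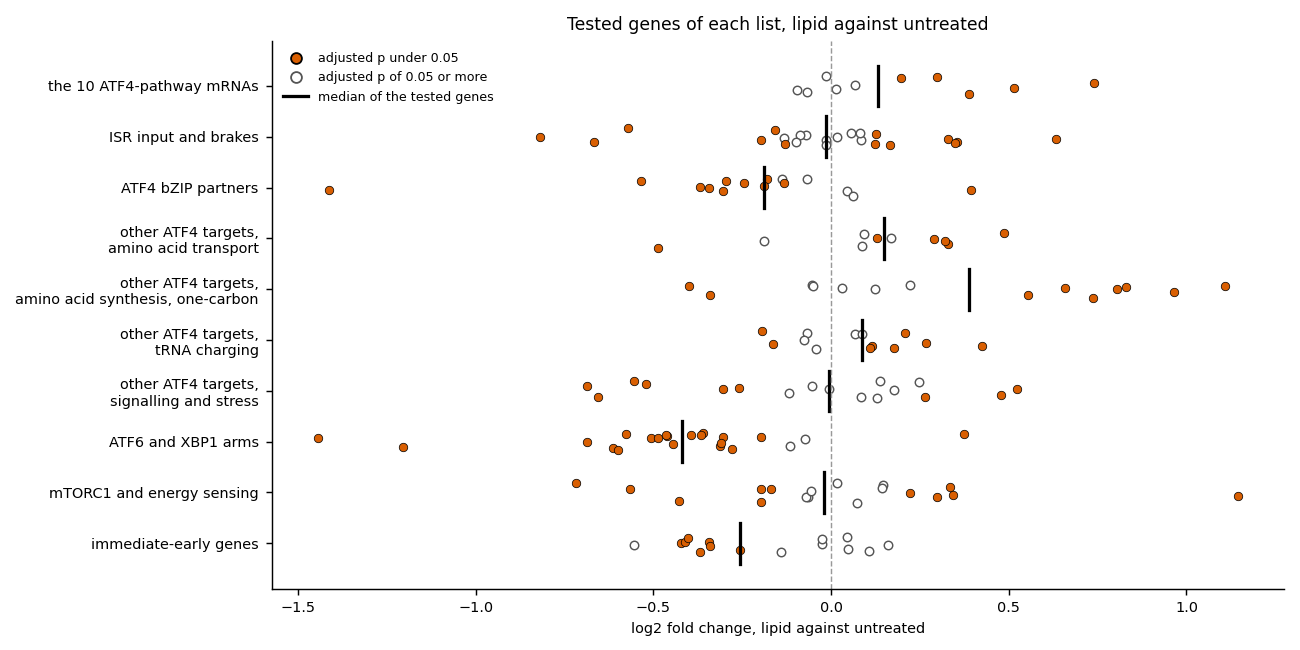
Log2 fold change of each tested gene for lipid against untreated hepatocytes, by list; filled points have an adjusted p under 0.05 and the vertical bar is the median of the list. The 14 enzymes of amino acid synthesis and the folate cycle have the highest median, 0.39, and the 22 genes of the ATF6 and XBP1 arms the lowest, -0.42; a gene in 2 lists is drawn in each.

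The mTORC1 and energy-sensing genes through which REDD1 and sestrins act were split, with 5 rises and 6 falls of 18 tested with lipid. *Castor1*, an arginine sensor, rose from 3.53 ± 0.223 to 7.84 ± 0.800 CPM (1.15, adjusted p = 7.6e-07) and *Deptor* by 0.34 (adjusted p = 0.00789). *Sesn3*, a paralogue of *Sesn2*, fell from 27.6 ± 2.07 to 16.8 ± 2.87 CPM (-0.72, adjusted p = 9.52e-06), in the opposite direction to *Sesn2*, and *Mlst8* fell by 0.56. With itaconate alone *Castor1* fell and *Akt1s1* rose. With lipid in the presence of itaconate 5 genes of this list rose and 5 fell. Immediate-early genes, of which *Atf3* is often counted one, had 7 falls and no rise of 15 tested with lipid (median -0.26), led by *Klf6* (-0.42) and *Zfp36* (-0.41), and 7 falls and 1 rise with itaconate present. *Junb* (0.21) and *Ier2* (0.18) rose when itaconate was added to lipid. Some genes stand in more than one list (*Fos*, *Jun*, *Junb*, *Cebpg*, *Jdp2*, *Herpud1* and *Dnajc3*).

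Markers of other cells moved with lipid too. The summed level of 6 cholangiocyte markers was 599 to 1169 CPM in untreated and 335 to 608 CPM in lipid-treated libraries, nearly all from *Spp1* and *Sox9*, which other liver cells can also express. The sum of 8 macrophage markers was 158 to 261 CPM untreated and 218 to 313 CPM with lipid, nearly all from *Cd68*, which rose (log2 fold change 0.43, adjusted p = 5.36e-06). *Adgre1* of the same list, at 0.636 to 3.80 CPM over the libraries, fell (-0.82, adjusted p = 0.00521), and the other 3 macrophage markers tested (*Clec4f* at -0.09, *Lyz2* at -0.01 and *Csf1r* at 0.01) did not pass the test. With itaconate present *Cd68* rose (0.58) while *Adgre1* (-1.52), *Csf1r* (-0.87), *Clec4f* (-0.62) and *Lyz2* (-0.59) fell. The sum of 8 hepatocyte markers was 44799 to 60060 CPM untreated and 38732 to 50399 CPM with lipid. The sums of endothelial (11.2 to 22.5 CPM) and stellate or fibroblast markers (15.4 to 24.4 CPM, nearly all *Reln*) were low throughout. The part of these shifts in the values of the 10 mRNAs was not tested, and in bulk RNA a change in the number of cells cannot be told from a change in RNA per cell.

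The genes whose pattern was most like that of *Atf4*, *Ddit3* and *Trib3* were sought among 9308 others with a mean of at least 5 CPM, by the mean absolute difference of centred log2 CPM over the 16 libraries. For *Atf4* they were *Nap1l4* (0.0381), *Tlnrd1* (0.0396) and *Mak16* (0.0402), against a mean absolute deviation of *Atf4* itself of 0.0579. For *Ddit3* they were *Hspa5* (0.145), *Enho* (0.178) and *Ralgps1* (0.180), against 0.283, and for *Trib3* they were *Atp7b* (0.0723), *Ptch1* (0.0770) and *Rab11fip3* (0.0775), against 0.172. These are descriptions of 16 libraries that share letters and treatments.

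Exons of some members overlap other genes in GENCODE release 21 (GRCm38). *Ddit3* (chr10:127290774-127296288, plus strand) shares 68 exon bases with *Mars* and *Atf5* (chr7:44812256-44816658, minus strand) shares 82 with *Nup62*, each on the opposite strand, and the library kit keeps strand. The main *Ddit3* row also shares 105 bases on the same strand with the second *Ddit3* identifier, so reads in those bases could have been divided between the rows.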

How the data were processed

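Stranded mRNA libraries of cultured primary hepatocytes from wild-type mice were sequenced, 4 per treatment. Per the study's methods and processing notes, the authors demultiplexed reads with bcl2fastq 2.20, trimmed them with Cutadapt 1.18, aligned them to mm10 with STAR 2.7.0f, collected statistics with Picard 2.18.26, and deposited gene-level expected counts from RSEM 1.3.1, with no normalization. RSEM divides ambiguous reads between genes, and 5.41% of the deposited values were not whole.

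After rounding, the 11675 genes that averaged 1 CPM or more were fitted together over all 16 libraries in edgeR 4.0.16 (R 4.3.3; TMM, quasi-likelihood test, treatment and replicate letter as terms). Standard errors were taken from the fold change and its F statistic, and intervals are 95%. CPM used TMM library sizes. DESeq2 1.42.0, limma 3.58.1 as part of edgeR, other filters and scalings, fits of 8 libraries and leaving out each of the 16 libraries served as alternatives. The code was tested on simulated data. All 55450 identifiers were found in GENCODE release 21.

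After subtraction of group means, libraries that share a letter correlated at 0.144 to 0.469 (24 pairs), and libraries of different letters at a median of -0.114 (72 pairs), so the letters were kept as a block; the labels do not say what they mark. No library was a copy of another of its own group, since the 24 pairs within groups differed by 10.0 to 147 times what counting error gives. Pairs from different groups were not compared in this way.

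The 10 members, the gene lists and the markers were chosen with earlier results of these data known. All members are named. From each list, the genes named in a comparison are at most 2 per direction, those past the threshold with the greatest fold changes. Some genes that met this rule are not named in the text. Other names are marked where they were added.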

Additional observations from a re-analysis of the deposited data

Results flagged for a closer look

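With 40 groups of 4 libraries examined, 2 held a library far below the other 3, which is about what chance gives at 1 in 20. *Atf3* was at 118 CPM in lipid replicate B while the other lipid libraries were at 167 to 171 CPM, and the gap was 92.1% of the range of the group. *Ppp1r15a* was at 83.3 CPM in untreated replicate B while the other untreated libraries were at 100.4 to 102 CPM, a gap of 89.4% of the range.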

How the results depend on the processing

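Letters enter the fits as a replicate block. With no replicate block 3 members were called for lipid against untreated (5 with it), 4 for lipid + itaconate against itaconate (6 with it) and 0 for lipid + itaconate against lipid (1 with it). With no filter on low counts 2 were called for itaconate against untreated, 8 for lipid + itaconate against itaconate and 2 for the interaction, and with only the 8 libraries of a comparison 4 and 0 were called for itaconate against untreated and for lipid + itaconate against lipid. The causes were not tested. The share of all genes called was counted only for the main fit, not for these settings or for those with a library left out. Leaving out each library in turn gave 3 to 5 calls for lipid against untreated (3 without untreated C or lipid C), 3 to 7 for lipid + itaconate against itaconate (3 without itaconate C), 0 to 2 for lipid + itaconate against lipid and 0 to 3 for itaconate against untreated (in both, the highest without lipid + itaconate C), and none for the interaction. Of 1090 member values over the alternatives, 994 kept direction and side of the threshold, 38 lost the call, 23 gained it and 35 changed sign, all of these with a library left out and none of them for a called difference. Their log2 fold changes ran, for lipid against untreated, from -0.028 to 0.046 (*Atf4*), -0.020 to 0.16 (*Ddit3*) and -0.092 to 0.068 (*Ppp1r15a*), and for itaconate against untreated from -0.050 to 0.063 (*Ddit4*). For lipid + itaconate against lipid they ran from -0.055 to 0.057 (*Atf5*), -0.12 to 0.095 (*Ddit4*) and -0.086 to 0.075 (*Ppp1r15a*), and for the interaction from -0.10 to 0.0024 (*Atf5*), -0.13 to 0.091 (*Ddit4*) and -0.060 to 0.052 (*Sesn2*). Of the counts of genes called in the lists, 1523 stayed within 1.5 times and 237 did not, of which 113 were for itaconate against untreated, 97 for lipid + itaconate against lipid, 12 for lipid against untreated and 15 for lipid + itaconate against itaconate. In both itaconate comparisons every list count was 0 with no replicate block. For lipid + itaconate against lipid every one was also 0 with only the 8 libraries. For itaconate against untreated, the 4 lists of ATF4 targets together moved with only the 8 libraries. There, genes called higher went from 4 to 12 and genes called lower from 3 to 7. In these 4 lists, genes called lower for lipid + itaconate against lipid went from 1 to 7 by DESeq2 and to 11 with no filter. With lipid, amino acid transport genes called higher went from 5 to 2 with no replicate block and to 3 by DESeq2, and signalling genes from 3 to 6 with no filter. With itaconate present, ATF6 and XBP1 genes called lower went from 17 to 5 with no replicate block, amino acid transport genes called higher from 2 to 5 with no filter, mTORC1 genes from 5 to 3 with no filter or only 8 libraries, and immediate-early genes from 1 to 2 with no filter and to 0 with no replicate block or only 8 libraries. Other scalings moved the median of all genes by at most 0.011 on the log2 scale.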
